A study of Mus musculus with 4 samples.

Results

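The 36 genes described here carry the cell division cycle and its DNA replication step, and were taken by symbol from a table of 46603 Ensembl gene identifiers counted in mouse liver RNA. They hold 8 G1 cyclins and cyclin-dependent kinases, 4 genes of G1 restraint and its target E2f1, 11 genes of DNA replication, 5 genes of G2 and entry into mitosis, and 8 mitotic genes, and every symbol was found. The study asked what loss of HuR, the RNA-binding protein encoded by Elavl1, in hepatocytes does to the liver in diet-induced fatty liver disease. All 4 mice were male HuR flox/flox animals of the C57BL/6 J strain, and their ages are not given in the sources used here. The paper states that its in vivo work used mice of both sexes. Each of the 4 mice received WDSW, a Western diet given together with a drink of fructose and glucose, for 4 weeks. The 2 control mice were injected with AAV8 carrying GFP under the thyroxine-binding globulin promoter, and the 2 HuR hKO mice with AAV8 carrying Cre under the same promoter, which is active in hepatocytes. The other cells of the liver therefore keep the floxed gene in both groups, and total liver RNA holds the RNA of all of them.

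In a resting cell, the retinoblastoma protein binds E2F factors and keeps the genes of DNA replication silent. D-type cyclins with Cdk4 or Cdk6, and then E-type cyclins with Cdk2, phosphorylate this protein and release E2F, and the cell copies its DNA. Mcm2 to Mcm7 form the ring-shaped helicase that is loaded on replication origins, while A- and B-type cyclins with Cdk1 bring the cell into mitosis. Adult hepatocytes rarely divide, many are polyploid, and they re-enter the cycle after loss of liver mass.

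The libraries held between 13032095 and 19715577 counts on genes, and the largest, from HuR hKO mouse 4, held 1.51 times the counts of the smallest, from control mouse 1. Each pair of libraries differed beyond sampling noise (chi-square over degrees of freedom 23.0 to 35.7), and the 4 mice were counted as separate samples. Levels are given as CPM, counts scaled to a common library size, on library sizes scaled with TMM factors of 0.957 to 1.04 from edgeR. A count of 0 in a library allows up to 3 counts, which is 0.152 to 0.23 CPM, a limit that covers counting error only. Alb, the albumin gene of hepatocytes, lay between 40931 and 45307 CPM in every library. Elavl1 gave 377 and 347 counts in control mice 1 and 2, and 541 and 648 in HuR hKO mice 3 and 4. The fitted log2 fold change was 0.41 (SE 0.135, unadjusted p = 0.016, adjusted p = 0.545 by the edgeR quasi-likelihood test). Both HuR hKO libraries lay above both controls, as 19.3% of all genes tested did. The targeted gene was thus not lower where the labels place its deletion, and groups and directions below are those of the labels. The paper, in contrast, reports reduced HuR mRNA and protein in HuR hKO livers, and staining that showed the loss in hepatocytes. The labels do not say which part of Elavl1 is floxed, and counts over the whole gene also hold the RNA of cells without Cre. Neither point was tested as a source of the higher Elavl1 counts, and the match of labels to livers was not tested.

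Promoter sequence was read for those of the 36 genes where it could be found. All the genes shown had a higher fitted level in HuR hKO, and none with a lower one is shown. A window before the transcription start was found in RefSeq (GRCm38.p6) for 28 of the 36 genes, and the 250 bases before each start were searched on both strands for an E2F site (TTTCCCGC, TTTCGCGC, TTTGCCGC or TTTGGCGC), a cell cycle homology region (CHR, TTTGAA) and a CCAAT box (CCAAT). The last 160 bases before the start are shown for 4 helicase genes and Mki67, none of them overlapping an annotated exon, with capitals marking the matches to these letters. The Mcm2 stretch is chr6:88898781-88898940 on the minus strand. The Mcm3 stretch is chr1:20820313-20820472 on the minus strand. The Mcm5 stretch is chr8:75109349-75109508 on the plus strand. The Mcm6 stretch is chr1:128359706-128359865 on the minus strand. The Mki67 stretch is chr7:135716380-135716539 on the minus strand. Each is written 5′ to 3′ in the direction of transcription.
Mcm2: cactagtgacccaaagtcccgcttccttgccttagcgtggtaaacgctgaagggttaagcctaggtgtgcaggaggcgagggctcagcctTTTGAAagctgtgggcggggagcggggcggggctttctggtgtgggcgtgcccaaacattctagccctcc
Mcm3: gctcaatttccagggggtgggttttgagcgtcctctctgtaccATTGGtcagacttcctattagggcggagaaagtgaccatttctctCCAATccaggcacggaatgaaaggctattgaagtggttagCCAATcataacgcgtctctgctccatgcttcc
Mcm5: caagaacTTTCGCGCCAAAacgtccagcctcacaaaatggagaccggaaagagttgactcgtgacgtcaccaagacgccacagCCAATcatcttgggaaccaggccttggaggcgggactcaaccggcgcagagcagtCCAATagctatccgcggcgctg
Mcm6: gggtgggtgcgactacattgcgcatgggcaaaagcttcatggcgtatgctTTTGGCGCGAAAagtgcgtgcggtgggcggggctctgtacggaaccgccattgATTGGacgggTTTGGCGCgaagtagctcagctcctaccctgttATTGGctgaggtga
Mki67: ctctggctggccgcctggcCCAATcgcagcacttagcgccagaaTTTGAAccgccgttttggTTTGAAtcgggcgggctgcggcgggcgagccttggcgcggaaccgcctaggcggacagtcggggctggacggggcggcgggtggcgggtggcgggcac

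An E2F site was found in the windows of 5 of the 28 genes (17.9%), namely Mcm5, Mcm6, Mcm7, Cdk1 and Cdk2. Over all genes, 1.86% of the 32851 windows held one, a share of windows rather than of genes, since a gene can have several. In Mcm5 the matches start 153 and 149 bases before the start and overlap each other, and in Mcm6 matches at 110 and 106 bases overlap while another lies at 47 bases. The Mcm7 match lies in a window that falls inside an annotated exon and is not shown. A CHR was found for 6 genes (21.4%), including Mcm2 and Mki67, against 16% of all windows, and a CCAAT box for 20 genes (71.4%), including the 5 helicase genes with a window, against 33.8%. The window of Tk1, which had a lower fitted level in HuR hKO, held no E2F site, CHR or CCAAT box. A match is a run of letters and was not tested as a binding site, nor was its relation to the fold changes.

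Per kilobase of exon, the levels of the 36 genes spread over a wide range, with Cdk4 and Pcna at the top and genes of the late cycle at the bottom. Cdk4, a kinase partner of the D-type cyclins, had the highest mean over the 4 libraries at 16.5 CPM per kb. Pcna, the sliding clamp of the replication fork, followed at 12.4 CPM per kb. Tk1 had 5.11, Ccnd1 4.81, Ccnd3 4.72 and Cdkn1b 4.43 CPM per kb, values that lie within the spread of Ccnd1 between mice. Mcm7 was the highest of the helicase genes at 3.04 CPM per kb and Mcm2 the lowest at 0.54. The mitotic kinase gene Aurka had 0.648, the proliferation antigen Mki67 0.141, and the spindle checkpoint kinase Bub1 0.0389 CPM per kb, the lowest of all. The 36 genes summed to 301 and 324 CPM in the control libraries, and to 340.4 and 333.7 CPM in HuR hKO mice 3 and 4.

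**Figure D1:**
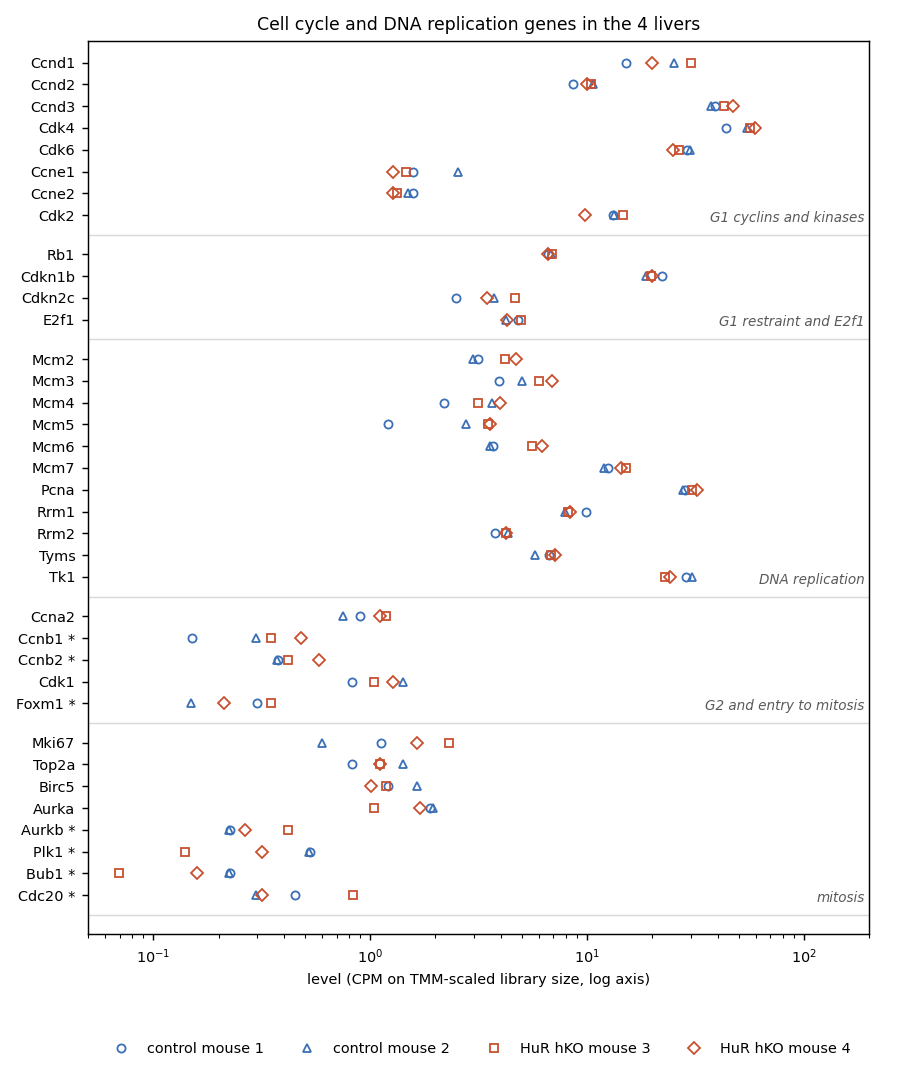
Level of each of the 36 genes in each mouse, in CPM on a log axis, grouped by role, with control mice in blue and HuR hKO mice in red. Genes marked with an asterisk were too low to be tested and had between 1 and 12 counts in a library. The levels of different genes in this plot are not divided by gene length.

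Of the 36 genes, 29 passed edgeR's filter on low counts and were tested among 13001 genes, and 7 did not. None of the 29 had an adjusted p under 0.05 by edgeR's quasi-likelihood test, where 0.0231% of all genes tested did (3 genes). At an unadjusted p under 0.05, Mcm6 and Mki67 were higher in the libraries labelled HuR hKO, where 4.04% of all genes were. Tk1 alone was lower at that threshold, where 3.39% of all genes were. The study's rule for its RNA-seq genes, a fold of at least 1.8 with an unadjusted p under 0.05, was met by Mki67 alone, and by 2.12% of all genes. Mki67 passed the filter through its HuR hKO libraries, since control mouse 2 had 8 counts, below the minimum of 10. It was not tested where every sample had to reach 10 counts. The fitted level was higher in HuR hKO for 19 of the 29 and lower for 10, and their median log2 fold change was 0.080, beside 6542 of 13001 genes higher and a median of 0.00195 over all genes. Both HuR hKO libraries lay above both control libraries for 11 of the 29, where 19.3% of all genes did so, and below for 6, where 18.8% did. The values of the other 12 overlapped between groups. The smallest two-sided p of an exact permutation test with 2 mice against 2 is 0.333, and the p-values given here use the variance that edgeR pools over genes.

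**Figure D2:**
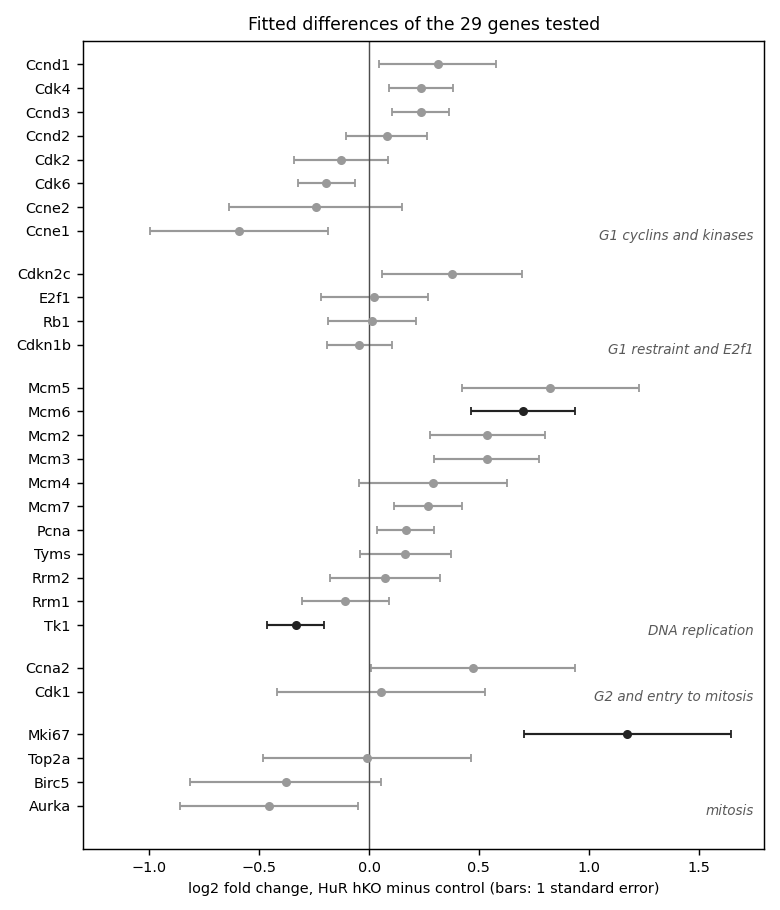
Log2 fold change, HuR hKO minus control, of the 29 genes tested, ordered within each role, with bars of 1 standard error. The 3 genes drawn in black (Mcm6, Mki67 and Tk1) had an unadjusted p under 0.05, and the 6 helicase genes all lie to the right of 0.

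The G1 cyclins and kinases had the highest summed level, 152 to 184 CPM over the 4 libraries, and showed no common direction, with 4 of 8 higher, 4 lower and none at an unadjusted p under 0.05. Ccnd1, the D-type cyclin that hepatocytes raise when they re-enter the cycle, lies on chromosome 7 from 144929931 to 144939925 (GRCm38, minus strand). Its counts were 202 and 337 in control and 435 and 376 in HuR hKO. As CPM these were 15.2 and 25.1 against 30.3 and 19.9, so HuR hKO mouse 4 lay below control mouse 2 and the groups overlapped. Its log2 fold change was 0.31 (SE 0.267, adjusted p = 0.838). Ccnd1 shares 23.4% of its exon length with LTO1 on the opposite strand, and no source says that strand was used in counting. LTO1 itself had 14.9 and 17.6 CPM in control and 12.0 and 11.5 CPM in HuR hKO.

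The other D-type cyclins were steadier than Ccnd1. Ccnd2 had 8.64 and 10.7 CPM in control and 10.5 and 9.97 CPM in HuR hKO, and its groups overlapped. Ccnd3 had 39.0 and 37.2 CPM in control and 42.6 and 47.0 CPM in HuR hKO, without overlap. Their kinase gene Cdk4 had 43.9 and 54.4 CPM in control and 56.3 and 59.3 CPM in HuR hKO, with control mouse 1 standing lower than the rest. Of the Cdk4 exon length, 19.7% is shared with Tspan31 on the opposite strand, a gene at 212 to 275 CPM. Cdk6 went the other way, with 28.8 and 29.8 CPM in control and 26.4 and 24.9 CPM in HuR hKO.

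Ccne1 and Ccne2, the E-type cyclins of the step into DNA replication, were low and had lower fitted levels in HuR hKO, without a call. Ccne1 had 21 and 34 counts in control and 21 and 24 in HuR hKO. Its log2 fold change was -0.59 (SE 0.406, adjusted p = 0.780), and control mouse 2, at 2.54 CPM, stood above the other libraries, at 1.27 to 1.58 CPM. Ccne2 had 21 and 20 counts in control and 19 and 24 in HuR hKO, a log2 fold change of -0.24 (SE 0.394, adjusted p = 0.916). Their partner Cdk2 had 13.2 and 13.3 CPM in control and 14.7 and 9.76 CPM in HuR hKO, so the HuR hKO mice lay on either side of the controls.

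The genes that restrain G1, and E2f1 itself, overlapped between the groups in all 4 cases. Rb1, which encodes the retinoblastoma protein, was the steadiest, at 6.61 and 6.79 CPM in control and 6.90 and 6.63 CPM in HuR hKO. Cdkn1b, the p27 inhibitor of cyclin-dependent kinases, had 295 and 252 counts in control and 283 and 377 in HuR hKO, or 20.5 ± 2.39 CPM against 19.9 ± 0.192 CPM (SD, n = 2 each), a log2 fold change of -0.045 (SE 0.148, adjusted p = 0.967). Cdkn2c, the p18 inhibitor of Cdk4 and Cdk6, had 33 and 50 counts in control and 67 and 65 in HuR hKO, a log2 fold change of 0.38 (SE 0.318, adjusted p = 0.837). E2f1, an activator of replication genes, had 64 and 57 counts in control and 71 and 81 in HuR hKO, a log2 fold change of 0.025 (SE 0.245, adjusted p = 0.990).

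The 6 helicase genes Mcm2 to Mcm7 all had a higher fitted level in HuR hKO than in control. Their median log2 fold change was 0.54, and 5 of the 6 had both HuR hKO libraries above both controls, as 19.3% of all genes did. Their summed level was 26.6 and 29.9 CPM in control and 37.4 and 39.7 CPM in HuR hKO. None passed the adjusted test, with adjusted p between 0.559 and 0.879 by edgeR, and the genes were seen to share this direction only after their values were known. Mcm6, on chromosome 1 from 128331590 to 128359664 on the minus strand, had 49 and 48 counts in control and 80 and 117 in HuR hKO. That is 3.63 ± 0.0734 CPM (SD, n = 2) against 5.89 ± 0.445 CPM (SD, n = 2). Its log2 fold change was 0.70 (SE 0.237, unadjusted p = 0.0179, adjusted p = 0.559 by edgeR). Mcm2, on chromosome 6 from 88883474 to 88898780, had 42 and 40 counts in control and 60 and 89 in HuR hKO, or 3.07 ± 0.123 CPM against 4.45 ± 0.381 CPM (SD, n = 2 each). For Mcm2 the log2 fold change was 0.54 (SE 0.262, adjusted p = 0.684).

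Mcm5, on chromosome 8 from 75109569 to 75128439, showed the largest fitted difference of the 6 and also the widest spread. It had 16 and 37 counts in control and 50 and 67 in HuR hKO, so that control mouse 1, at 1.2 CPM, lay far below control mouse 2, at 2.76 CPM, while HuR hKO mice 3 and 4 lay close together at 3.48 and 3.55 CPM. The log2 fold change of Mcm5 was 0.83 (SE 0.401, adjusted p = 0.684). Mcm3 had 52 and 67 counts in control and 86 and 130 in HuR hKO, with an unadjusted p of 0.0555 by edgeR. Mcm4 had 29 and 49 counts in control and 45 and 75 in HuR hKO, and as CPM it was the helicase gene whose groups overlapped (2.18 and 3.65 against 3.14 and 3.98). Mcm7, the most abundant of them, had 166 and 160 counts in control and 216 and 271 in HuR hKO, a difference of 0.27 on the log2 scale. Part of the Mcm7 exons (7.25% of their length) is shared with Ap4m1 on the opposite strand.

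**Figure D3:**
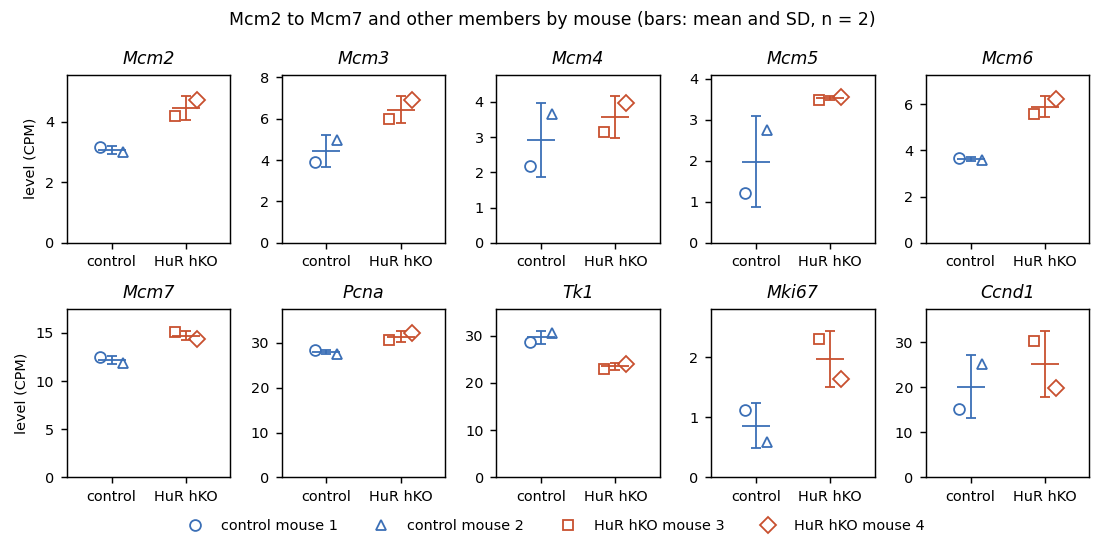
Level in CPM of Mcm2 to Mcm7, Pcna, Tk1, Mki67 and Ccnd1 in each mouse, with the mean and SD of the 2 mice of each group and axes starting at 0. The HuR hKO mice lie above both controls for every gene shown except Mcm4, Ccnd1 and Tk1, and Tk1 lies below.

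The other 5 replication genes did not share this direction, since 3 were higher and 2 lower, and the median log2 fold change was 0.071. Their summed level was 77.4 and 76.1 CPM in control and 72.7 and 76.0 CPM in HuR hKO. Tk1, the cytosolic thymidine kinase of the salvage pathway, lies on chromosome 11 from 117815526 to 117826092. Its counts were 382 and 410 in control and 329 and 454 in HuR hKO, which after scaling is 29.6 ± 1.31 CPM against 23.5 ± 0.812 CPM (SD, n = 2 each). Its log2 fold change was -0.33 (SE 0.131, unadjusted p = 0.0336, adjusted p = 0.616 by edgeR). The raw counts of Tk1 overlapped between the groups, HuR hKO mouse 4 having the deepest library, and without scaling for library size its log2 fold change was -0.016.

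Pcna had 28.3 and 27.6 CPM in control and 30.5 and 32.2 CPM in HuR hKO, without overlap but with a difference of 0.17 on the log2 scale. Tyms, the thymidylate synthase that makes the same nucleotide de novo, had 6.69 and 5.74 CPM in control and 6.83 and 7.10 CPM in HuR hKO. Of the ribonucleotide reductase subunits, Rrm1 had 9.92 and 7.90 CPM in control and 8.15 and 8.38 CPM in HuR hKO. Rrm2, the subunit restricted to cycling cells, had 3.76 and 4.32 CPM in control and 4.25 and 4.24 CPM in HuR hKO. Both subunits overlapped between the groups.

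The genes of G2 and of entry into mitosis were low, with 2 to 24 counts in a library. Ccna2, the A-type cyclin, had 12 and 10 counts in control and 17 and 21 in HuR hKO, a log2 fold change of 0.47 (SE 0.465, adjusted p = 0.856). Cdk1, the kinase that drives mitosis, had 11 and 19 counts in control and 15 and 24 in HuR hKO, a log2 fold change of 0.054 (SE 0.473, adjusted p = 0.989). Neither had an unadjusted p under 0.05 by edgeR, and the groups of Cdk1 overlapped. The B-type cyclins and Foxm1, the transcription factor of the late cycle, were not tested. Ccnb1 had 2 and 4 counts in control and 5 and 9 in HuR hKO, Ccnb2 had 5 and 5 against 6 and 11, and Foxm1 had 4 and 2 against 5 and 4.

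Mki67 was the mitotic gene that stood apart. It lies on chromosome 7 from 135689784 to 135716361 on the minus strand and had 15 and 8 counts in control against 33 and 31 in HuR hKO. Of the control mice, only mouse 1 reached the low-count filter's minimum count of 10, and both HuR hKO mice did. The level of Mki67 was 0.862 ± 0.375 CPM in control and 1.97 ± 0.464 CPM in HuR hKO (SD, n = 2 each), a 2.26-fold difference by the fit. The log2 fold change was 1.18 (SE 0.471, unadjusted p = 0.0366, adjusted p = 0.632 by edgeR). The other mitotic genes that were tested did not follow it. Top2a, the topoisomerase that untangles chromosomes, had 11 and 19 counts in control and 16 and 21 in HuR hKO, and its groups overlapped.

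Birc5, which encodes survivin, had 16 and 22 counts in control and 17 and 19 in HuR hKO, a log2 fold change of -0.38 (SE 0.433, adjusted p = 0.879). Aurka had 25 and 26 counts in control and 15 and 32 in HuR hKO, a log2 fold change of -0.46 (SE 0.405, adjusted p = 0.843), and its HuR hKO mice differed from each other more than the groups did. Aurkb, Plk1, Bub1 and Cdc20 were too low to be tested. Aurkb, the kinase of the chromosomal passenger complex, had 3 and 3 counts in control and 6 and 5 in HuR hKO. Plk1, a mitotic kinase, had 7 and 7 against 2 and 6, and Cdc20, an activator of the anaphase-promoting complex, had 6 and 4 against 12 and 6. Bub1 had 3 and 3 counts in control and 1 and 3 in HuR hKO. The 7 genes that were not tested summed to 2.25 and 2.09 CPM in control and 2.58 and 2.33 CPM in HuR hKO. Without the low-count filter, edgeR's quasi-likelihood test gave none of them an unadjusted p under 0.05.

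Leaving out each mouse in turn showed which of these values rest on 1 library. The log2 fold change of Mcm6 stayed between 0.62 and 0.75, that of Mki67 between 0.79 and 1.69, and that of Tk1 between -0.39 and -0.29. Of these fits, the one without control mouse 2 gave the largest fold changes of Ccnd1, Cdk4, Mcm3 and Mcm5 (0.72, 0.40, 0.73 and 1.54). Each of these fits leaves 1 mouse in a group, so only fold changes are given. Without control mouse 1, Mcm4 stood at -0.044 and the helicase median was 0.35. Ccnd1 lost its direction without control mouse 1 (-0.019) and without HuR hKO mouse 3 (-0.033). The sign of 18 of the 29 fold changes was kept whichever mouse was left out.

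**Figure D4:**
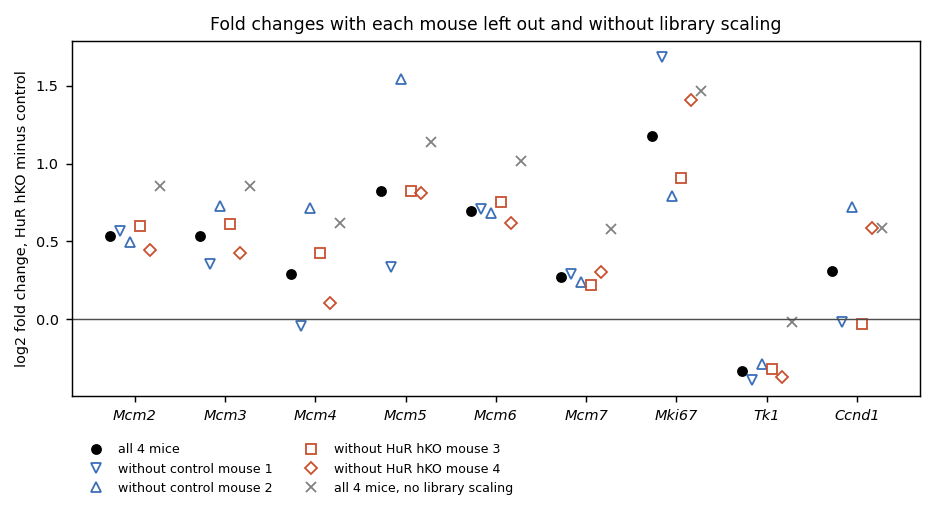
Log2 fold change, HuR hKO minus control, of 9 genes with all 4 mice, with each mouse left out in turn and without scaling for library size. Points without control mouse 1 lie lowest for Mcm3, Mcm4 and Mcm5, where Mcm4 reaches -0.044, and Tk1 without scaling lies at -0.016.

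Of 123 other cell cycle genes in lists written by hand, 97 were tested, of which 60 were higher and 37 lower. Their median log2 fold change was 0.083. By edgeR's quasi-likelihood test with the low-count filter, none passed at an adjusted p under 0.05, 4 were higher at an unadjusted p under 0.05, near the 4.04% of all genes, and 0 were lower. Cdkn1a, the p21 inhibitor of cyclin-dependent kinases and a target of p53, had 73 and 77 counts in control and 142 and 261 in HuR hKO. Its log2 fold change was 1.08 (SE 0.222, adjusted p = 0.207 by edgeR's quasi-likelihood test). Without the low-count filter its adjusted p was 0.00859, and by edgeR's exact test 0.00778. These 2 settings put 161 of 21432 and 120 of 13001 genes under 0.05, against 3 by the quasi-likelihood test with the filter. By the DESeq2 Wald test, limma-voom and edgeR's robust test the adjusted p of Cdkn1a was not under 0.05. Cdt1, which loads the helicase on origins, had 30 and 27 counts in control and 59 and 62 in HuR hKO, a log2 fold change of 0.79 (SE 0.306, adjusted p = 0.612). Ccnf, the cyclin of a ubiquitin ligase, had 217 and 191 counts against 296 and 375, a log2 fold change of 0.41 (SE 0.149, adjusted p = 0.577). Ccng1, another target of p53, had 517 and 491 counts against 664 and 883, a log2 fold change of 0.30 (SE 0.127, adjusted p = 0.653). All 4 had both HuR hKO libraries above both control libraries, but they were named for their small p, which favors such genes. Of the 97 tested, 26 lay above both controls and 9 below, where 19.3% and 18.8% of all genes did.

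By role, the other genes of origins and replication forks were higher for 27 of 35 tested, with a median of 0.16. Both HuR hKO libraries lay above both controls for 15 of the 35 and below for 2, where 19.3% and 18.8% of all genes did so. Among them the origin subunit gene Orc6 had 36 and 39 counts in control and 60 and 74 in HuR hKO, and Rpa3, of the complex that coats single-stranded DNA, had 63 and 72 against 106 and 126. These examples were chosen after their values were seen. Of the other E2F factors, their partners and pocket proteins, 3 of 14 tested were higher, with a median of -0.070, 12 of the 14 overlapped between groups, and no gene had an unadjusted p under 0.05 by edgeR. The other mitotic genes had 12 of 18 higher, and the genes of cyclin degradation and kinase activation had 10 of 20 higher. The inhibitors and checkpoint genes, with Cdkn1a and Ccng1 among them, had 8 of 10 higher.

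Markers of other cell types that could carry dividing cells were read beside these values. The erythroid list had 5 of 6 tested genes higher, 3 of them at an unadjusted p under 0.05 by edgeR (Hbb-bs, Hbb-bt and Alas2), and summed to 381 and 463 CPM in control and 498 and 724 CPM in HuR hKO. The stellate cell list had 6 of 7 higher, 2 of them at that threshold (Col1a1 and Col3a1), and summed to 185 to 188 CPM in control and 201 to 255 CPM in HuR hKO. Endothelial markers were higher for 6 of 6 and Kupffer cell markers for 7 of 10, none at an unadjusted p under 0.05 by edgeR. Their sums ran from 157 to 183 against 187 to 209 CPM, and from 255 to 261 against 276 to 291 CPM.

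The sums of the T and NK cell, B cell, and monocyte and neutrophil lists overlapped between groups and stayed under 10 CPM, and Ly6g of neutrophils had 0 counts in every library. Of 4 cholangiocyte markers tested, 2 were higher and 2 lower. Krt19 had 162 counts in control mouse 1 against 5, 7 and 34 in the other libraries, Sox9 overlapped between groups, and Spp1 was higher in HuR hKO (31.5 and 22.3 against 34.8 and 41.8 CPM, unadjusted p = 0.0257 by edgeR). The hepatocyte list overlapped between groups in its sum. Whether these cell types take part in the values of Mcm2 to Mcm7 or Mki67 was not tested, and in total liver RNA a change in the number of cells of a type and a change in RNA per cell cannot be told apart.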

How the data were processed

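Total liver RNA of 4 mice was sequenced, 2 labelled control and 2 labelled HuR hKO, from libraries made with Genewiz's protocols. The authors deposited raw, unnormalized counts per gene, all of them whole numbers, and each of the 4 columns was matched to its mouse. The submitters' processing notes name RSEM and GRCm38 without a role or version, so the counts may be rounded estimates, and the aligner and the use of strand are not given in the sources used here. Reads shared by overlapping or near-identical genes could therefore have been split, and 15 of the 36 genes overlap another gene in their exons, 13 of them on the opposite strand.

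Symbols were matched to 46005 of 46603 identifiers, leaving 598 without one, and coordinates are those of GENCODE M21. Library totals ranged from 13032095 to 19715577 counts, so precision is lowest for genes with few counts. Genes passing edgeR's low-count filter (minimum count 10, total 15) were tested with its quasi-likelihood test (edgeR 4.0.16, R 4.3.3) on TMM-scaled counts, without covariates, with Benjamini-Hochberg adjustment over all 13001 genes kept. Replicates are the mice of the labels. Alternatives were other library scalings or none, other low-count filters, DESeq2 1.42.0, edgeR's exact test, limma-voom (limma 3.58.1), the robust test, and leaving out each mouse. The scripts were tested on simulated data. Other steps used python 3.11.15, pandas 2.3.3, numpy 2.4.6, scipy 1.17.1 and matplotlib 3.10.9.

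The genes and all lists were chosen with earlier results of these data known. Fold changes with errors are given for genes with an unadjusted p under 0.05, for Ccnd1, and for up to 3 genes with the largest absolute fold change in each role. Of the other cell cycle genes, up to 5 with the smallest unadjusted p under 0.05 in each direction were named.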

Additional observations from a re-analysis of the deposited data

How the results depend on the processing

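The number of the 36 genes at an adjusted p under 0.05 was 0 under every alternative that kept all 4 mice. At an unadjusted p under 0.05, 2 were higher by edgeR's quasi-likelihood test, 7 without scaling for library size, 4 without a filter on low counts, 1 with at least 10 counts in every sample, 0 by the DESeq2 Wald test and 0 to 5 with a mouse left out. The 1 lower gene, Tk1, was not found without scaling, by the DESeq2 Wald test or by edgeR's exact test (0 each). Of all 13001 genes, 81, 251 and 427 were lower in these settings, in that order. The background of higher genes also moved between settings. At an unadjusted p under 0.05, 525 of 13001 genes were higher by edgeR's quasi-likelihood test and 1316 of 13001 without scaling. The number was 704 of 21432 without the filter and 470 of 12118 with at least 10 counts in every sample. By the DESeq2 Wald test it was 324 of 13001. Without scaling, the median over all genes moved from 0.00195 to 0.31 on the log2 scale, the median of the 29 genes from 0.080 to 0.39, and the helicase median from 0.54 to 0.86, and 11365 of 13001 genes were then higher. With a mouse left out these medians ranged from 0.053 to 0.22 and from 0.35 to 0.70. Of the other cell cycle genes, 15 were higher without scaling and 1 by the DESeq2 Wald test, and with a mouse left out 1 to 3 were higher and 0 to 2 lower. The helicase median was added as a measure after seeing the data.

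Without scaling, Ccne2 turned to 0.068 and Cdkn1b to 0.27. With a mouse left out, Ccnd1 ranged from -0.033 to 0.72, Cdkn1b from -0.16 to 0.067, E2f1 from -0.094 to 0.13 and Cdk1 from -0.29 to 0.49. The adjusted p of Mcm6 lay between 0.144 and 1.000, and that of Cdkn1a between 0.000724 and 0.941, under 0.05 without scaling, without the filter (0.00859) and by the exact test (0.00778). The causes of these differences were not tested, apart from scaling, which moves all genes. No paired analysis was possible because the groups share no replicate numbers. With a mouse left out, the lone sample is assumed to vary like the other group. Counts of at most 12 leave the 7 genes that were not tested with the widest errors (SE 0.818 to 1.35 without the filter).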

Other observations

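Mcm10, which helps to start the replication fork, stood far above the helicase genes in all 4 libraries. It had 1892 and 1436 counts in control and 1962 and 2177 in HuR hKO, and its mean level per kilobase of exon was 16.3 CPM per kb, where Mcm7 had 3.04. Its groups overlapped, with 142 and 107 CPM against 136.7 and 115.4 CPM. Mcm10 was chosen after its values were seen.

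The origin complex gene Gins2 varied between mice of the same group, with 67 and 180 counts in control and 130 and 106 in HuR hKO. Uhrf1, which maintains DNA methylation during replication, had 4 and 5 counts in control and 11 and 17 in HuR hKO. Only its HuR hKO counts reached the low-count filter's minimum count of 10, so its p-value is not given. Both genes were chosen after their values were seen.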
